A study of Mus musculus with 12 samples.

Results

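The genes of cholesterol synthesis, uptake, storage and efflux were followed in the livers of germ-free (GF) and conventionalized (CV) mice. They were chosen by name, as 32 gene symbols, and 31 of these were found among the 41128 genes of the deposited table. All 31 passed the filter on low values, which left 11782 genes for testing. By role they comprised 17 of 18 named enzymes of synthesis, 4 genes of the transcription factor SREBP2 and its control, and 10 genes of uptake, storage, intracellular transport and efflux. The enzyme without a row of its own was Tm7sf2, a sterol reductase. Its Ensembl identifier stood in the table under the symbol of a neighbouring gene, Vps51, whose exons overlap its own on the same strand, so its reads are given below as a description and were not counted among the enzymes.

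All mice were C57BL/6, were germ-free at birth and stayed in sterile isolators up to weaning at 21 days. GF mice remained there. CV mice were littermates that were moved out at weaning and housed for 3 weeks in cages with soiled bedding taken from the same animal facility. Both were killed at 6 weeks of age. Each condition held 3 mice labelled male and 3 labelled female, with 1 liver library per mouse, 12 libraries in all. The microbes that the bedding carried were not described, the labels did not say which mice shared a litter, and colonization and the move out of the isolator cannot be told apart in this design.

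Cholesterol is built in the liver from acetyl-CoA through mevalonate, isoprenoid diphosphates, squalene and lanosterol. The genes of these enzymes share a transcription factor, SREBP2, which is escorted by Scap from the endoplasmic reticulum to be cleaved when membrane sterol is low, and which Insig1 and Insig2 hold back when sterol is high. A second sensor, the oxysterol receptor encoded by Nr1h3, acts when sterol is plentiful, and its known targets include the efflux pumps Abca1 and Abcg1 and Mylip, a ubiquitin ligase that marks lipoprotein receptors for degradation. The liver also takes up cholesterol from lipoproteins, esterifies it, and returns it to plasma lipoproteins or to bile.

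Values are normalised read counts, that is, reads per gene divided by the size factor of the library. The reads per library ranged from 5993619 to 10975691 in GF and from 8890529 to 15290835 in CV. A set of 9 abundant loci (both mitochondrial ribosomal RNA genes, Lars2, Mir6236 and predicted genes, picked after their values were seen) held 42.1% to 69.8% of the reads in GF and 5.43% to 22.0% in CV, so that depth for all other genes was lower in GF. The library labelled CV male 3 went against its label, with 0 reads from Y-linked genes where the other libraries labelled male had 796 to 1314. Its value for Xist, an RNA made in female cells, was 2382. The other libraries labelled male had 4.68 to 21.3, and those labelled female 1045 to 11928. By both measures it read as the libraries labelled female did. It was kept under its label in the male group and in comparisons of the sexes, and male results are therefore also given without it. The summed hepatocyte markers ranged from 80016 to 293290 in GF and from 224221 to 384514 in CV, and 3 of 6 of them were called higher in CV. Of 6 Kupffer cell markers, 3 were called higher. Of 5 sinusoidal endothelial markers 1 was called lower, and of 5 stellate cell markers 1 was called higher and 1 lower. Of 5 bile duct markers 0 were called. The summed blood markers ranged from 2777 to 32885 in GF and from 916 to 3159 in CV, with 4 of 5 called lower. Among all tested genes, 32.3% were called higher and 28.7% lower. In whole liver, a change in the share of a cell type and a change in RNA per cell cannot be told apart, and the part of these differences in the results was not tested.

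The enzymes of synthesis were higher in CV livers. Over both sexes, 15 of 17 rose and 0 fell in limma with Benjamini-Hochberg adjustment over all tested genes at a threshold of 0.05, against a background of 32.3% of all tested genes called higher and 28.7% called lower. The median log2 change of the 17 enzymes was 1.39, and that of all tested genes was 0.07. For 11 of 17 enzymes all 6 CV livers lay above all 6 GF livers, as was so for 15.6% of all tested genes. The 17 log2 changes ran from 0.57 to 2.23. The 11 enzymes without overlap spanned the pathway from the thiolase Acat2 to the desaturase Sc5d.

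Pmvk, which encodes phosphomevalonate kinase, had the smallest adjusted p of the enzymes. It is annotated on GRCm38 at chr3:89454541-89469013 on the plus strand. Its normalised read counts were 60.0, 83.8 and 99.2 in GF males and 70.9, 104 and 42.2 in GF females. In CV males they were 306, 318 and 228, and in CV females 361, 464 and 482. The lowest CV liver thus stood well above the highest GF liver, and Pmvk rose by 2.23 ± 0.22 (SE) on the log2 scale, a 4.70-fold change (adjusted p = 1.1e-06).

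Ebp encodes the sterol isomerase that shifts a double bond in the ring system late in the pathway, and lies at chrX:8185329-8193512 on the minus strand. Its values were 672, 1561 and 1054 in GF males and 510, 838 and 378 in GF females. They were 3238, 1983 and 2474 in CV males and 2367, 3420 and 3106 in CV females. No CV liver fell within the range of the GF livers, and GF males lay above GF females on average (1096 ± 446 against 575 ± 237, SD, n = 3 each). Ebp rose by 1.85 ± 0.24 over both sexes (adjusted p = 9.99e-06).

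Fdft1 encodes squalene synthase, which commits farnesyl diphosphate to sterols, and lies at chr14:63145150-63179578 on the minus strand. GF males had 197, 405 and 215 and GF females 267, 399 and 180. CV males had 1689, 611 and 675, and CV females 941, 1693 and 1604. CV male 1 stood apart from the other livers labelled CV male, and even the lowest CV liver exceeded every GF liver. The log2 change was 2.06 ± 0.28, or 4.18-fold (adjusted p = 1.64e-05).

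In the first steps of the pathway, Acat2, the cytosolic thiolase that joins acetyl-CoA units, rose by 2.07 ± 0.29, from 47.9 to 153 in GF livers to 223 to 617 in CV livers. Hmgcs1, the synthase that makes HMG-CoA, had a wide spread, 659 to 3482 in GF and 1870 to 3909 in CV, and its change of 0.74 ± 0.35 did not pass (adjusted p = 0.0792). Mvk, mevalonate kinase, rose by 1.54 ± 0.24 without overlap of the livers. Mvd, the decarboxylase that follows Pmvk, ranged from 78.8 to 255 in GF and from 121 to 359 in CV, and its change of 0.62 ± 0.33 did not pass (adjusted p = 0.113). The consecutive kinases Mvk and Pmvk were thus called, and Hmgcs1 upstream and Mvd downstream of them were not. Both depended on single livers, since Hmgcs1 passed without GF male 2 (0.89, adjusted p = 0.0454), GF female 2 (0.98, adjusted p = 0.0195) or CV male 2 (0.89, adjusted p = 0.0462), and Mvd without GF male 2 (0.84, adjusted p = 0.0326) or CV female 1 (0.86, adjusted p = 0.0295).

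Among the isoprenoid steps, Idi1, the isomerase of isopentenyl diphosphate, rose by 1.83 ± 0.40, with the lowest value of any enzyme in any liver in GF female 3 (11.5, from 6 reads). Fdps, farnesyl diphosphate synthase, went from 180 to 1214 in GF livers to 1872 to 4162 in CV livers and rose by 2.23 ± 0.36, as large a change as that of Pmvk with a wider error. Sqle, squalene epoxidase, rose by 1.15 ± 0.36 and its livers overlapped. Lss, which closes squalene epoxide into lanosterol, had the smallest change that passed, 0.57 ± 0.24 (adjusted p = 0.0465), and overlapped widely, with 225 to 485 in GF and 292 to 729 in CV. Its call was lost in 17 of 36 alternative settings, and its sign turned in a further 2.

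Of the enzymes that trim lanosterol to cholesterol, Cyp51, the lanosterol demethylase, rose by 1.39 ± 0.32 and Msmo1, the methylsterol oxidase, by 1.28 ± 0.27. Hsd17b7 and Nsdhl, which act after Msmo1 in removing the same methyl groups, rose by 1.39 ± 0.27 and 0.89 ± 0.30. The call of Nsdhl was lost without CV male 1 (adjusted p = 0.0525) or CV female 3 (adjusted p = 0.0514). Sc5d, the desaturase that follows Ebp, rose by 1.40 ± 0.26, from 749 to 2288 in GF to 2403 to 5570 in CV. Dhcr7, which reduces a late intermediate to cholesterol, rose by 0.96 ± 0.29 with overlapping livers. The row that carried the identifier of Tm7sf2 under another symbol read 223 to 592 in GF and 745 to 1327 in CV, and its difference was 1.43 ± 0.22 (adjusted p = 4.19e-05). Which of the overlapping genes its reads came from was not tested.

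**Figure D1:**
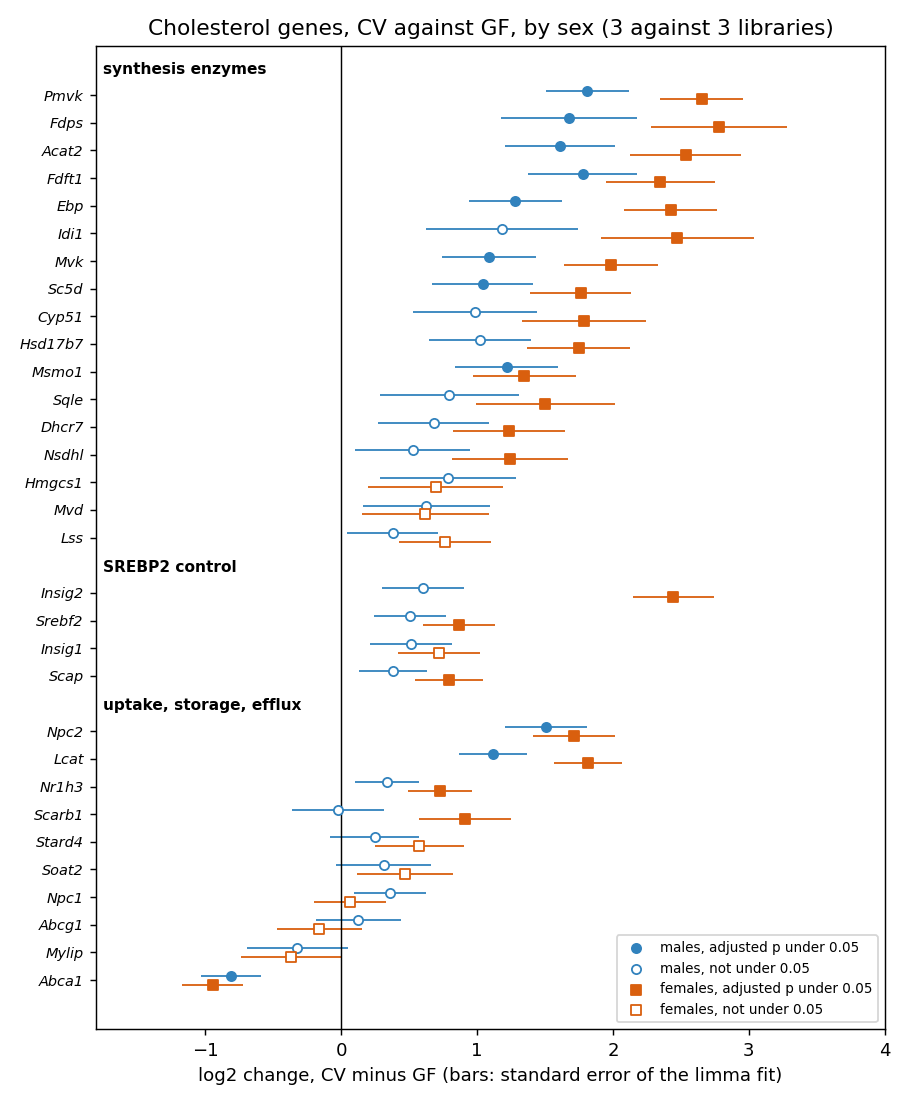
Log2 change (CV minus GF) with its standard error for 31 genes, in males (circles) and in females (squares), 3 against 3 libraries each. Filled symbols have an adjusted p under 0.05 in limma. All 17 synthesis enzymes lie to the right of 0 in both sexes, and Abca1 lies to the left in both.

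RefSeq gave promoters on GRCm38.p6 for 24 of the 32 named genes, 15 of them among the 18 named enzymes of synthesis with Tm7sf2 included, and the 250 bases before each start were searched on both strands. The motifs were spelled out. TCACNCCAC is one form of the sterol regulatory element, CCAAT is the box bound by NF-Y, and GGGCGG is the GC box bound by Sp1. NF-Y and Sp1 are known partners of SREBP2. CCAAT was found in 14 of 15 synthesis promoters, in 37.5% of all 27025 genes with a promoter and in 40.5% of the 9055 tested genes with one. GGGCGG was found in 14 of 15, against 35.4% of all genes and 63.2% of tested genes. TCACNCCAC was found in 1 of 15, Hmgcs1, against 1.22% of all genes. CCAAT was in 6 and GGGCGG in 7 of the other 9 members. A gene with several starts was counted once if any window held the motif. A match describes the letters only, and SREBP2 binding was not measured.

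Promoters are shown for Ebp and Mvk, enzymes whose livers did not overlap, for Hmgcs1, the enzyme with the sterol element and no call, and for Abca1, the member that fell. Capitals mark CCAAT or its reverse complement ATTGG wherever they occur, and the sterol element in Hmgcs1. The windows are on GRCm38.p6 and end at the base before the start.
Ebp (chrX:8193513-8193762, minus strand): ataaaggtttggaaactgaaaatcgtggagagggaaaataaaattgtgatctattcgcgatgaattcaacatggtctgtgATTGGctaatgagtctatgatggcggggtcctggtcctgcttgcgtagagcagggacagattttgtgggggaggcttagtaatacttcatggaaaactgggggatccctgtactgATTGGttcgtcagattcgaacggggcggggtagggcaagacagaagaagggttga
Mvk (chr5:114444019-114444268, plus strand): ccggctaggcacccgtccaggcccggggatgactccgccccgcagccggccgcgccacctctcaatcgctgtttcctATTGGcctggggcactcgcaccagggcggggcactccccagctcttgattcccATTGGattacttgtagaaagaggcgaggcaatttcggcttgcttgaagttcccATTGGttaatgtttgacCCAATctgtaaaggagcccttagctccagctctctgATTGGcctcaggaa
Hmgcs1 (chr13:119690101-119690350, plus strand): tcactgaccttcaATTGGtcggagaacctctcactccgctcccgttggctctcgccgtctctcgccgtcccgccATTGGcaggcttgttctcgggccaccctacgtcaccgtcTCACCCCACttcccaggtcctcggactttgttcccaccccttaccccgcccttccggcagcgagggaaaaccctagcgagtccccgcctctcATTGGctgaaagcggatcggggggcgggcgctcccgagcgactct
Abca1 (chr4:53159896-53160145, minus strand): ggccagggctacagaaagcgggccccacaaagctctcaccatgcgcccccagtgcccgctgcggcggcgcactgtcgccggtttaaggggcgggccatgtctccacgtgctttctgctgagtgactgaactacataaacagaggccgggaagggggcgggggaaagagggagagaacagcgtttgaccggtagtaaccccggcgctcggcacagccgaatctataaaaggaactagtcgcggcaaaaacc
The Ebp window held CCAAT at 2 places and that of Mvk at 5. In Hmgcs1 the sterol element began 137 bases before the start, and the window held CCAAT at 3 places. The Abca1 window held no CCAAT and GGGCGG at 2 places, 163 and 97 bases before the start.

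In males the rise of the enzymes was called for 8 of 17 (Pmvk, Ebp, Fdft1, Acat2, Mvk, Fdps, Sc5d and Msmo1) and 0 fell, with 14.1% of all tested genes called higher and 15.4% lower in that comparison. The median change was 1.04. Hsd17b7 missed the threshold (1.02 ± 0.38, adjusted p = 0.0503), as did Idi1 (1.18 ± 0.56, adjusted p = 0.121) and Cyp51 (0.99 ± 0.45, adjusted p = 0.111). The male count depended on single libraries, as did the count over all tested genes. It was 6 without CV male 3, whose label is in doubt, 5 without GF male 3, 3 without CV male 1 and 2 without GF male 1. All genes called higher in males numbered 1428, 983, 965 and 725 in the same fits, against 1660 with all libraries. Pmvk and Fdft1 were called in each of these fits, Ebp in all but the fit without GF male 1 (0.97, adjusted p = 0.0746). Pmvk changed by 1.96 without CV male 3 (adjusted p = 0.0021). Fdft1 then changed by 1.97 (adjusted p = 0.00612).

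In females 14 of 17 rose and 0 fell, against 29.8% of all tested genes called higher and 26% lower. The median change was 1.76. With GF female 3 left out, Idi1 changed by 1.58 (adjusted p = 0.00434), while Sqle (0.77), Nsdhl (0.72) and Dhcr7 (0.65) were no longer called. The calls of Sqle, Nsdhl and Dhcr7 were also lost without CV female 2 or CV female 3. Fdps rose by 2.78 ± 0.50, Pmvk by 2.65 ± 0.31, Acat2 by 2.53 ± 0.41, Idi1 by 2.47 ± 0.56 and Ebp by 2.43 ± 0.34. Those not called were Lss (0.76 ± 0.34, adjusted p = 0.0627), Hmgcs1 (0.69 ± 0.50, adjusted p = 0.248) and Mvd (0.62 ± 0.47, adjusted p = 0.271). For 15 of 17 enzymes the estimate was larger in females than in males. But the difference itself, tested as an interaction, was called by limma for 0 of 31 members and for 0% of all tested genes. An unadjusted p under 0.05 was reached by 2 of 31 members (Insig2 and Ebp), and by 1382 of all 11782 tested genes. The Ebp difference was 1.14 ± 0.48 (unadjusted p = 0.03, adjusted p = 0.422).

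**Figure D2:**
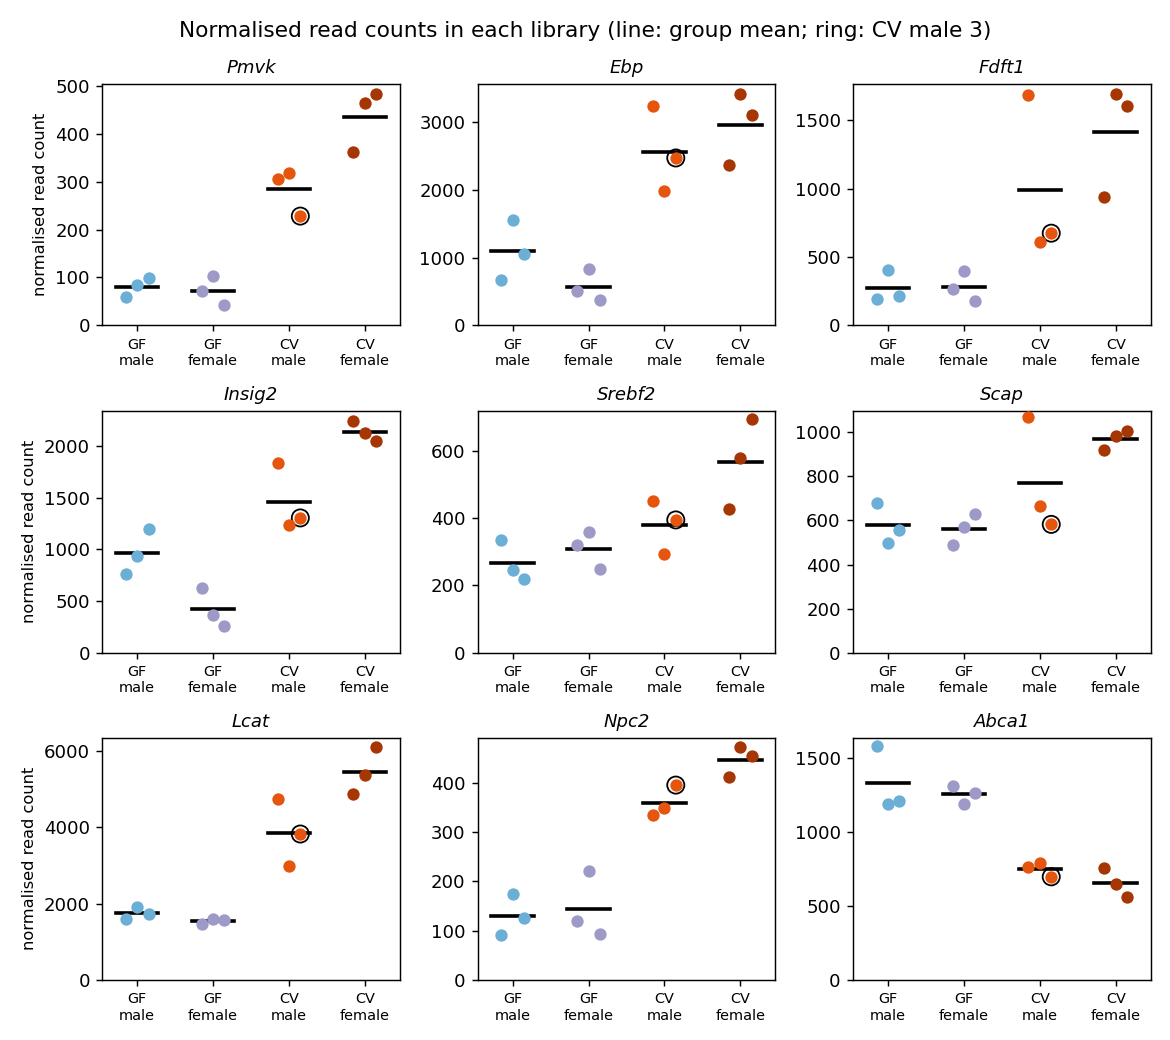
Normalised read counts (linear axis from 0) of 9 genes in each of 12 libraries, 3 per group, with the group mean as a line and a ring around CV male 3. Pmvk, Ebp, Fdft1, Insig2, Lcat and Npc2 show no overlap between GF and CV, Abca1 is lower in every CV liver, and Srebf2 and Scap overlap.

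The enzymes also moved together within each group. After the mean of its own group was taken from each library, the 136 pairs of enzymes had a median Pearson r of 0.859 over the 12 libraries, and 136 of 136 were above 0. The median over all pairs of tested genes was 0.0018, over the 6 pairs of control genes 0.352, and over the 45 pairs of uptake, storage and efflux genes -0.12. These values describe 12 libraries, in which points share a size factor, and no p is attached to them. GF male 1, GF female 3 and CV female 1 were each the lowest of their group for 17 of 17 enzymes. GF male 2 and CV male 1 were each the highest for 16 of 17. The median deviation of the enzymes was 0.62 in CV male 1, -0.91 in GF female 3 and 0.61 in GF female 2 on the log2 scale. Those GF females thus differed, within 1 group, by more than the median change of the 17 enzymes between conditions (1.39).

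The share of reads in the 9 loci moved with this rank in part. It was 52.1% in GF male 1 against 42.6% and 42.1% in the other GF males, 69.8% in GF female 3 against 58.5% and 68.3%, and 5.43% in CV male 1 against 21.5% and 22.0%. In GF females the share did not follow the rank throughout, since the 68.3% was that of GF female 2, the highest for 12 of 17 enzymes. In CV females it went the other way, since CV female 1, the lowest for the enzymes, had 5.80% against 7.53% and 8.03%. Its part in the joint movement was not tested.

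Other members tracked the enzymes unequally within groups. Stard4, which carries sterol between membranes, had r = 0.823 with the mean of the 17 enzymes, Insig1 0.750, Npc2 0.681, Insig2 0.617, Lcat 0.571, Srebf2 0.565 and Scap 0.063. Npc1, the membrane protein that exports cholesterol from lysosomes, had r = -0.747, Abcg1 -0.685, Mylip -0.485 and Abca1 -0.459, each over 12 libraries. Among the enzymes themselves Cyp51 had the highest value, 0.988, and Pmvk the lowest, 0.761.

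**Figure D3:**
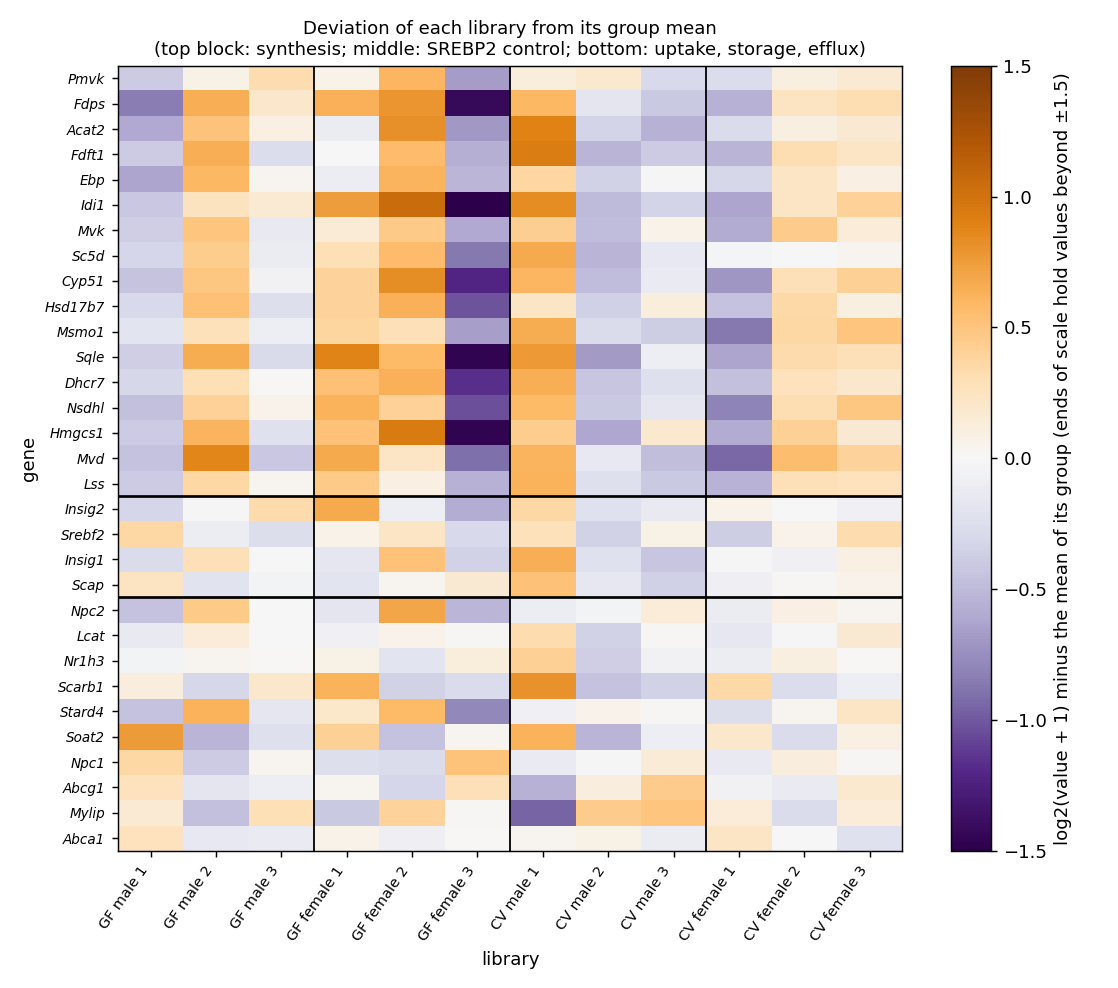
Deviation of log2(value + 1) from the mean of its own group, for 31 genes (rows, by role) in 12 libraries (columns, by group). The top block of 17 enzymes changes colour as a unit from one library to the next, for instance in GF female 3 (median -0.91) and CV male 1 (median 0.62), and the bottom block does not.

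All 4 control genes were called higher over both sexes, where 32.3% of all tested genes were, with a median log2 change of 0.65 that was 0.58 above the median of all tested genes. Insig2 alone showed no overlap between 6 and 6 livers, with CV higher, as was so for 15.6% of all tested genes.

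Insig2, one of the proteins that retain Scap and SREBP2 in the endoplasmic reticulum, lies at chr1:121304353-121332589 on the minus strand. GF males had 758, 933 and 1192 and GF females 626, 367 and 261. CV males had 1835, 1238 and 1303 and CV females 2240, 2125 and 2044. By label, the GF females were lower than the GF males and the CV females higher than the CV males, with no overlap in either condition. CV male 3, whose label is in doubt, read 1303, below CV male 1 at 1835. The separation of the sexes in CV thus rests on that label. Insig2 rose by 1.52 ± 0.21 over both sexes (adjusted p = 1.86e-05) and by 2.44 ± 0.30 in females (adjusted p = 1.52e-05), a 5.44-fold change. In males the change was 0.60 ± 0.30 (adjusted p = 0.138, and 0.67 with adjusted p = 0.156 without CV male 3), although the 3 CV livers lay above the 3 GF livers. The female change exceeded the male change by 1.84 ± 0.42 (unadjusted p = 0.000474, adjusted p = 0.417). This difference was called by DESeq2 (adjusted p = 0.0142), by edgeR without a filter (adjusted p = 0.0415) and by limma without CV male 1 (adjusted p = 0.0337), but not by limma without CV male 3 (1.77, adjusted p = 0.531) or by edgeR with TMM factors and its filter (adjusted p = 0.42).

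Srebf2, the gene of SREBP2 itself, lies at chr15:82147181-82205379 on the plus strand. It read 336, 245 and 220 in GF males, 320, 359 and 247 in GF females, 452, 293 and 394 in CV males and 428, 579 and 695 in CV females. The conditions overlapped in males and not in females. The change was 0.69 ± 0.19 over both sexes (adjusted p = 0.00471). Transcript level is a limited readout of SREBP2, since its activity is set by cleavage of the protein, which was not measured.

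Scap, the escort of SREBP2, lies at chr9:110333288-110384950 on the plus strand. It read 678, 496 and 558 in GF males, 488, 572 and 629 in GF females, 1069, 665 and 582 in CV males and 920, 985 and 1009 in CV females. CV male 1 was the highest of all 12 livers, and the other CV males lay among the GF livers. Scap rose by 0.59 ± 0.18 (adjusted p = 0.00919). Insig1, a known SREBP2 target as well as its restraint, ranged from 673 to 1290 in GF and from 866 to 1825 in CV and rose by 0.62 ± 0.21 (adjusted p = 0.0195, and 0.0506 without GF male 1).

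By sex, the control genes were called in 0 of 4 in males by limma, with 0 of 4 at an unadjusted p under 0.05 and 0 of 4 called by edgeR or by DESeq2. Of all tested genes, limma called 14.1% higher and 15.4% lower in males, and 4894 of 11782 had an unadjusted p under 0.05. In males edgeR called 1704 genes higher and 2150 lower, and DESeq2 1928 and 2229. In females 3 of 4 rose, against 29.8% of all tested genes, and Insig1 missed the threshold (0.72 ± 0.30, adjusted p = 0.052, and 0.0119 without GF female 2). The female call of Scap was lost without GF female 1 (adjusted p = 0.0591) and that of Srebf2 without GF female 3 (adjusted p = 0.0507) or CV female 3 (adjusted p = 0.0668). Without CV male 3 the male count stayed at 0.

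Uptake, storage and efflux genes went separate ways. Over both sexes 3 of 10 rose (Lcat, Npc2 and Nr1h3), 1 fell (Abca1) and 6 did not pass, near or below the 32.3% of all tested genes called higher and the 28.7% called lower. The median log2 change was 0.40, or 0.33 above that of all tested genes. For Lcat and Npc2 all 6 CV livers lay above all 6 GF livers, as was so for 15.6% of all tested genes. For Abca1 all 6 lay below, as was so for 15.7% of all tested genes.

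Lcat encodes the plasma enzyme that esterifies cholesterol on high-density lipoprotein and lies at chr8:105939551-105943382 on the minus strand. Its values were close within GF, at 1594, 1914 and 1740 in males and 1467, 1596 and 1558 in females. They were 4737, 2978 and 3828 in CV males and 4879, 5365 and 6117 in CV females. Every CV liver exceeded every GF liver. Lcat rose by 1.47 ± 0.18 over both sexes (adjusted p = 5.48e-06), by 1.12 ± 0.25 in males and by 1.82 ± 0.25 in females.

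Npc2 encodes a soluble lysosomal protein that binds cholesterol and hands it to Npc1, and lies at chr12:84754562-84773152 on the minus strand. It read 91.3, 174 and 125 in GF males, 119, 221 and 93.9 in GF females, 336, 350 and 396 in CV males and 412, 473 and 455 in CV females. The CV livers were tightly grouped and none came near the GF range. Npc2 rose by 1.61 ± 0.21 (adjusted p = 1.11e-05), 3.05-fold, with 1.51 ± 0.30 in males and 1.71 ± 0.30 in females. Its partner Npc1, which acts in the same step, ranged from 544 to 1317 in GF and from 845 to 1047 in CV, with a change of 0.21 ± 0.19 (adjusted p = 0.33).

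Abca1 encodes the pump that loads cholesterol onto apolipoprotein A-I and lies at chr4:53030787-53159895 on the minus strand. GF males had 1583, 1190 and 1207, and GF females 1310, 1189 and 1259. CV males had 762, 793 and 696, and CV females 758, 649 and 557. All CV livers were below all GF livers and neither sex stood apart. Abca1 fell by 0.88 ± 0.16 on the log2 scale over both sexes (adjusted p = 0.000174), with -0.81 ± 0.22 in males (adjusted p = 0.014, and 0.0702 without GF male 1) and -0.95 ± 0.22 in females (adjusted p = 0.002). The longest Abca1 transcript has 10262 bases, the longest of the 31 members, and the call was lost when the trend of the values on transcript length and GC content was removed from each library (-0.16, adjusted p = 0.345) or when values were scaled to all reads (-0.32, adjusted p = 0.166).

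The remaining members of this group changed less. Nr1h3, the oxysterol receptor, rose by 0.53 ± 0.17 (adjusted p = 0.0107), but its change was 0.03 (adjusted p = 0.861) once the length and GC trend was removed. Scarb1, which takes up cholesterol ester from high-density lipoprotein, was called in females (0.91 ± 0.34, adjusted p = 0.0315) and had -0.02 ± 0.34 in males (adjusted p = 0.966), with an interaction of 0.94 ± 0.48 (adjusted p = 0.438). The female call was lost without GF female 2, GF female 3, CV female 1 or CV female 3 (adjusted p from 0.0597 to 0.124). Over both sexes Scarb1 had 0.44 ± 0.24 (adjusted p = 0.12, and 0.0436 without GF female 1). Stard4 changed by 0.41 ± 0.23 (adjusted p = 0.135, 0.0371 without GF male 2 and 0.0397 without GF female 2). Soat2, the enzyme that stores cholesterol as ester in hepatocytes, changed by 0.39 ± 0.25 (adjusted p = 0.179, and 0.0408 without GF male 1). Abcg1 was nearly level, 31.9 to 57.5 in GF and 26.5 to 54.5 in CV (-0.02 ± 0.22, adjusted p = 0.951), and Mylip had -0.34 ± 0.26 (adjusted p = 0.268). Of the Nr1h3 targets Abca1, Abcg1 and Mylip, Abca1 alone was therefore called in the values as deposited, and in the direction opposite to Nr1h3.

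In males 2 of the 10 genes rose (Lcat and Npc2) and 1 fell (Abca1), against 14.1% and 15.4% of all tested genes. The same counts, 2 and 1, held without CV male 3, where Abca1 had -0.76 (adjusted p = 0.0429). In females 4 rose (Lcat, Npc2, Nr1h3 and Scarb1) and 1 fell, against 29.8% and 26% of all tested genes. These counts are given as a description. The call of Nr1h3 was lost without CV female 2 (adjusted p = 0.0577). No member was called in opposite directions in the 2 sexes.

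The enzymes were then set against the uptake, storage and efflux genes within each library, a difference that scaling between libraries leaves nearly untouched. The mean log2 level of the 17 enzymes ranged from 7.11 to 8.86 in GF livers and from 9.09 to 10.1 in CV livers. The mean of the 10 other genes ranged from 8.31 to 8.48 and from 8.56 to 8.97. The enzymes minus the other genes gave -0.52, 0.55 and -0.05 in GF males, -0.004, 0.25 and -1.26 in GF females, 1.35, 0.53 and 0.51 in CV males and 0.39, 1.29 and 1.14 in CV females. The means were -0.01 ± 0.53 and -0.34 ± 0.81 in GF males and females, and 0.80 ± 0.48 and 0.94 ± 0.48 in CV males and females (SD, n = 3 each). CV exceeded GF by 1.04 over both sexes, by 0.80 in males and by 1.28 in females, where the pooled SD within groups was 0.59. The male difference was 0.53 without CV male 1 and the female difference 0.82 without GF female 3. GF male 2 overlapped the 3 lowest CV livers, so the balance between the groups of genes separated the conditions less cleanly than the enzymes did.

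**Figure D4:**
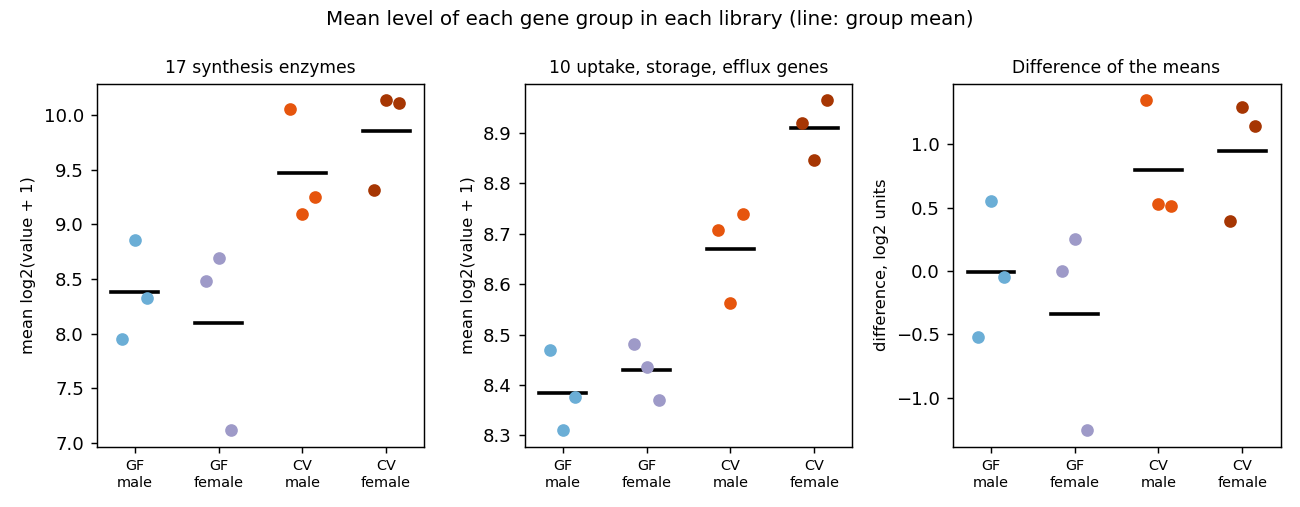
Mean log2(value + 1) of the 17 synthesis enzymes (left) and of the 10 uptake, storage and efflux genes (middle) and their difference (right) in each of 12 libraries, with the mean of each group of 3 as a line. The vertical axes differ: the enzyme means span 7.11 to 10.1 and the other means 8.31 to 8.97. The difference of GF male 2 (0.55) lies among the CV livers.

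Levels were compared between genes per kilobase of exon. In CV livers Lcat had the highest mean of the members, 3466 normalised reads per kilobase, followed by Ebp (1197), Sc5d (856), Fdps (720) and Hmgcs1 (659). In GF livers Lcat (1226) was followed by Hmgcs1 (434), Ebp (362) and Sc5d (330). Fdps stood at 171 and Pmvk at 44.7 in GF, and at 720 and 210 in CV. At the low end were Mylip (16.3) and Abcg1 (5.71) in CV. The order in GF differed by sex, with Ebp (474) above Hmgcs1 (379) in GF males and Hmgcs1 (489) above Ebp (249) in GF females.

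Scaling moved all members together. The median log2 change of all tested genes was 0.07 as deposited, 0.64 when libraries were scaled to all reads and -0.41 when they were scaled to the reads outside the 9 loci. Relative to that median the enzymes were 1.31 higher as deposited, 1.31 with all reads and 1.32 outside the 9 loci, the control genes 0.58, 0.58 and 0.59, and the uptake, storage and efflux genes 0.33, 0.33 and 0.34. Calls of members with small changes followed the scaling. With all reads, 7 of 10 uptake, storage and efflux genes were called higher and Abca1 was not called, where 50.7% of all tested genes were called higher and 13.3% lower. Outside the 9 loci the calls of Srebf2, Scap, Insig1, Nr1h3, Lss, Sqle, Nsdhl and Dhcr7 were lost and Mylip was called lower (-0.81, adjusted p = 0.0348), where 17.5% of all tested genes were called higher and 42.1% lower.

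Transcript length moved with the change across all genes. The tested genes were split by transcript length into 5 classes of about equal size. The median log2 change was 0.70 in the class with the shortest transcripts and then 0.44, 0.09, -0.15 and -0.67 towards the longest. Pmvk, Ebp, Mvd and Lcat were in the shortest class, and Lss, Abca1, Abcg1 and Npc1 in the longest. With the trend on length and GC removed, 18 of the 23 members called over both sexes were still called in the same direction. Lost were Abca1, Dhcr7, Insig1, Nr1h3 and Nsdhl, and added were Hmgcs1, Npc1 and Stard4. Pmvk then had 1.52, Fdft1 1.99, Lss 1.11 and Lcat 0.76, so that Lss, in the longest class, had a larger change and Lcat, in the shortest, a smaller one.

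The share of mitochondrial ribosomal RNA and the share of the 9 loci each lay mostly between the conditions (79.9% and 84.7% of their variance over the 12 libraries). With either as a covariate, the standard errors of the members' changes were 3.60 and 3.89 times as large at the median, and limma called 0 of 31 members over both sexes, with 3 of 31 at an unadjusted p under 0.05 in both fits. With the share of the 9 loci the estimate itself turned below 0 for 15 of 17 enzymes (median -1.09), and with the ribosomal RNA share for 2 of 17 (median 0.85). Of all tested genes, 0 were then called higher in either fit, and 0 and 7 were called lower. Condition and these shares cannot be told apart at this sample size.

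**Figure D5:**
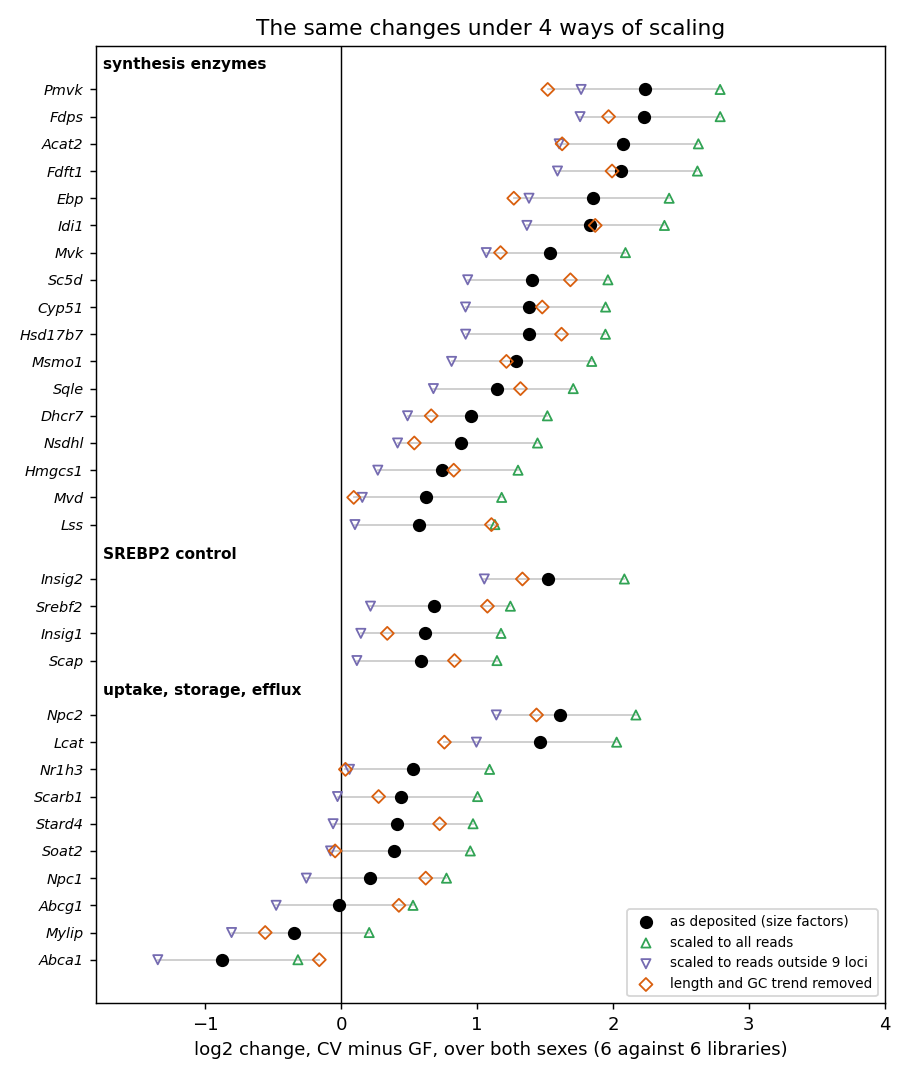
Log2 change over both sexes (CV minus GF, 6 against 6 libraries) of 31 genes as deposited (filled circles), scaled to all reads (upward triangles), scaled to reads outside the 9 loci (downward triangles) and with the trend on length and GC removed (diamonds). All 17 enzymes stay above 0 in the 4 settings, and Abca1 moves from -0.88 to -0.16 when the length and GC trend is removed.

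Further genes came from lists drawn up for each step, and are read against 32.3% of all tested genes called higher and 28.7% called lower. Of 5 other genes listed with synthesis, 2 rose and 1 fell. Acat1, which encodes the mitochondrial thiolase and not the cytosolic enzyme of the pathway (Acat2), rose by 2.03 ± 0.25 without overlap. Ggps1, which diverts farnesyl diphosphate to geranylgeranyl diphosphate, fell by 0.79 ± 0.20 over both sexes (adjusted p = 0.00261), with -1.30 in females (adjusted p = 0.00109) and -0.29 in males (adjusted p = 0.459). Of 10 other control genes, 5 rose and 0 fell. Rnf139, a ubiquitin ligase of the endoplasmic reticulum with a sterol-sensing domain, rose by 0.82 ± 0.20. Of 15 other uptake, storage and efflux genes, 5 rose and 5 fell, shares near those of all tested genes. Gramd1c and Gramd1a, which encode proteins that carry cholesterol from the plasma membrane to the endoplasmic reticulum, fell by 2.08 ± 0.18 (adjusted p = 5.44e-07) and 1.57 ± 0.22 (adjusted p = 2.26e-05) without overlap of the conditions. Nceh1, a cholesterol ester hydrolase, rose by 1.26 ± 0.19 (adjusted p = 3.43e-05).

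Some members share exon sequence with other annotated genes. Fdps overlaps Gm43738 and Nr1h3 overlaps Gm13783 on the same strand, and exons of Cyp51, Fdft1, Hmgcs1, Idi1, Lss, Npc1 and Scap overlap genes on the opposite strand. The library kit keeps strand, but the strand setting of the counting was not given, so reads of such pairs cannot be told apart here. Pmvk, Ebp, Insig2, Srebf2, Lcat, Npc2 and Abca1 have no such overlap.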

How the data were processed

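Liver poly(A) RNA of 12 mice was sequenced with a TruSeq stranded kit, 1 library per mouse, and groups were read from the sample titles. The deposited values are a normalised signal per gene: per the labels, the authors counted reads with HTSeq 0.6.1p1 on GRCm38 and normalised with DESeq2. Each deposited value was a whole multiple of 1 read over its library's size factor (100% of values, within 0.01 reads), so whole reads were recovered. The aligner, annotation and strand setting were not given in the sources used here. Replicates were separate mice.

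Values of genes with a mean of at least 10 were tested as log2(value + 1) in limma 3.58.1 (R 4.3.3), with 1 mean per group of condition and labelled sex, a variance trend, Benjamini-Hochberg adjustment over 11782 genes and a threshold of 0.05. The pseudocount of 1 makes the change of a low gene appear smaller than it is. Recovered reads were tested with edgeR 4.0.16, which called 3707 genes higher and 3927 lower over both sexes, and with DESeq2 1.42.0. Other scalings, filters, covariates and left-out libraries are described in the closing section. A count of 0 reads allows up to 3, for counting error only.

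The members and gene lists were chosen with earlier results of these data known. Values for every library are given for the 3 members per role with the smallest adjusted p over both sexes and for members called lower, and up to 3 genes per further list are named by adjusted p. Some genes that this rule would name are not reported here. Coordinates and lengths came from the GENCODE annotation of GRCm38, and promoters from RefSeq on GRCm38.p6.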

Additional observations from a re-analysis of the deposited data

Results flagged for a closer look

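Of 64 sets of 6 libraries checked for a value far from the rest (31 members and the difference between the enzyme mean and the mean of the uptake, storage and efflux genes, in each condition), 2 were flagged, and chance flags about 1 in 20 such sets. The normalised read count of Abca1 in GF male 1 was 1583, apart from the other 5 GF livers by 0.692 of their whole range, where 0.625 is the limit for 6 samples. The normalised read count of Nr1h3 in GF female 2 was 489, below the other GF livers by 0.697 of the range. Both genes are among those whose call over both sexes was lost when the trend on length and GC was removed. In limma, no member was called for a difference between the sexes in the response over all 12 libraries.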

How the results depend on the processing

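Counts of called members were recomputed in 36 other settings. Over both sexes the 15 synthesis enzymes called ranged from 13 to 17 with 1 library left out, the 4 uptake, storage and efflux genes from 4 to 5 and the 4 control genes from 3 to 4. In males the ranges were 2 to 11, 2 to 3 and 0 to 0, and in females 11 to 15, 4 to 5 and 2 to 4. All genes called higher then numbered 3492 to 3963 over both sexes, 725 to 1912 in males and 2964 to 3717 in females. Those called lower numbered 3084 to 3466, 870 to 1965 and 2586 to 3285. The interaction gave 0 to 1 call, with 1 (Insig2) without CV male 1, with DESeq2 and with edgeR without a filter. In males edgeR without a filter called 13 enzymes, with 2102 of all genes called higher. A threshold of 0.01 left 3 enzymes in males, with 588 of all genes called higher. At 0.01, 3 uptake, storage and efflux genes and 1 control gene were called in females, with 2640 of all genes higher and 2286 lower. Scaling to all reads gave 7 uptake, storage and efflux genes over both sexes, with 5954 of all genes called higher and 1565 lower. It gave 2 control genes in males, with 2831 of all genes higher and 771 lower. Scaling to reads outside mitochondrial rRNA gave 8 uptake, storage and efflux genes over both sexes, with 5325 of all genes higher and 1925 lower. An alternative without CV male 2 and CV male 3, added after the data were seen, left too few CV males for counts to be given. With the length and GC trend removed 1 control gene was called in males, where 1515 of all genes were called higher and 1434 lower. Abca1 in females then had 0.028. Scaling outside the 9 loci, also added later, called 1 control gene over both sexes, 1 in females, and 3 uptake, storage and efflux genes in females. All genes called higher and lower then numbered 2092 and 5025 over both sexes and 1822 and 4806 in females. The cause of these shifts was not tested.

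With either read share as covariate 0 members were called in any comparison. With the mitochondrial rRNA share, signs turned over both sexes for 9 of 31 members. Among the members called as deposited, these were Lss (-0.51), Insig1 (-0.39), Scap (-0.40) and Nr1h3 (-0.51), and in females, where 9 of 31 turned, Scap (-0.59), Nr1h3 (-0.73) and Scarb1 (-1.36). With the share of the 9 loci, added later, signs turned for 23 of 31 members over both sexes, 18 in males and 23 in females, including the uncalled Mvd (-2.19), Hmgcs1 (-1.56) and Scarb1 (-2.20) over both sexes. Among members called as deposited they turned over both sexes for Acat2 (-0.65), Mvk (-0.047), Idi1 (-1.78), Fdps (-1.19), Fdft1 (-0.48), Sqle (-2.33), Lss (-1.93), Cyp51 (-1.09), Msmo1 (-0.85), Nsdhl (-1.83), Hsd17b7 (-0.12), Sc5d (-1.09), Dhcr7 (-1.74), Insig1 (-1.03), Insig2 (-0.75) and Nr1h3 (-0.50). Among those called in males they turned for Acat2 (-0.21), Fdps (-0.61), Msmo1 (-0.21) and Sc5d (-0.62). Among those called in females they turned for Acat2 (-1.10), Mvk (-0.12), Idi1 (-2.33), Fdps (-1.78), Fdft1 (-1.04), Sqle (-3.14), Cyp51 (-1.52), Msmo1 (-1.4995), Nsdhl (-2.38), Hsd17b7 (-0.26), Sc5d (-1.56), Dhcr7 (-2.36), Insig2 (-0.59), Nr1h3 (-0.65) and Scarb1 (-2.61).

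The same replicate numbers occur in GF and CV, but same-numbered libraries did not deviate together (r from -0.228 to 0.019 over the 6 pairs within sexes). With the replicate number as a block, 14 enzymes, 4 uptake, storage and efflux genes and 4 control genes were called over both sexes. In males they numbered 7, 3 and 0, in females 14, 5 and 3, and 0 members were called in the interaction. All genes called higher in this fit numbered 3639 over both sexes, 1212 in males and 3295 in females. Those called lower numbered 3188, 1391 and 2818.

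The depth outside the 9 loci, 1811042 to 5262722 reads in GF and 6931429 to 14403918 in CV, limits low members in GF most, such as Idi1 with 6 reads in GF female 3 and Abcg1 with at least 14.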
